A study of Mus musculus with 10 samples.

Results

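The albumin gene cluster was described as all peaks overlapping the window from 90800000 to 91000000 of chromosome 5 on the mouse build mm9, a stretch of 200 kb that holds Alb, Afp and Afm in tandem. Of 344928 peaks in 9 peak lists, 248 lay in this window, and 6 of the 9 lists had any there. The peaks were called from chromatin immunoprecipitation and sequencing (ChIP-seq) of normal mouse liver, sampled as full sections. The labels gave no strain, sex or age of the mice.

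The tested libraries came from formalin-fixed, paraffin-embedded (FFPE) liver. In FiTAc-seq, sections were heated overnight in detergent buffer and then sonicated before immunoprecipitation of H3K27Ac, the acetylated form of a lysine on histone H3. FiTAc-seq was run at 50 °C with 40 or 5 min of sonication, at 65 °C with 40 or 5 min, and at 80 °C with 40 min. The condition of 65 °C/5 min had 2 libraries and every other condition had 1. FiT-seq, in which proteinase K took the place of heating, gave 1 H3K27Ac library and 1 library for H3K4me2, a form of histone H3 with a dimethylated lysine. Set against these was 1 H3K27Ac library of fresh frozen liver that the series calls matched, sectioned and fixed briefly in formaldehyde before sonication. An input DNA of FFPE liver was not analysed here. The series asked which heating and sonication suited FFPE tissue. With 1 library in most groups no test between conditions could be made. The standard deviation (SD) of the pair at 65 °C/5 min served as the yardstick for differences, and that spread may be technical.

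Albumin, the main protein of blood plasma, is made by hepatocytes. The gene Alb lies beside Afp, which encodes alpha-fetoprotein, the plasma protein of the fetal liver that is shut off after birth, and Afm, which encodes afamin, a vitamin E-binding plasma protein. The genes arose by duplication, and in mouse liver their promoters are bound by factors such as HNF1 and C/EBP, together with enhancers that lie far upstream of Alb and between Alb and Afp. H3K27Ac marks active promoters and enhancers, and H3K4me2 marks promoters and enhancers more broadly. In RefSeq the protein-coding genes run in the order Cox18, Ankrd17, Alb, Afp, Afm, Albfm1 and Rassf6.

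The RefSeq sequences just upstream of the 3 genes are shown because Alb and Afp differed in H3K27Ac peaks around their given starts. Each line gives the 250 bases before the start in the RefSeq table, on the plus strand of build GRCm38.p6, and capitals mark GTTAAT, a core of the HNF1 motif, on either strand. These positions belong to another build than the peaks and cannot be set against them.
Alb, chr5:90460620-90460869: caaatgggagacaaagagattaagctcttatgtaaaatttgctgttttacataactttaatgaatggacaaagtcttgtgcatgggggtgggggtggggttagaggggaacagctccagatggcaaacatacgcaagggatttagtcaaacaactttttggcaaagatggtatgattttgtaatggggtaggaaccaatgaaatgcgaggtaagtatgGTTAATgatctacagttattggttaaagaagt
Afp, chr5:90490464-90490713: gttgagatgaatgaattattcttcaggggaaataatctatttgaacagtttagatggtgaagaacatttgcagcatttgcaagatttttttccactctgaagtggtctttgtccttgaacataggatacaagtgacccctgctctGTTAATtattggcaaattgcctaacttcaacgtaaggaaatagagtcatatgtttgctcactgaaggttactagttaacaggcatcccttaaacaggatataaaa
Afm, chr5:90518699-90518948: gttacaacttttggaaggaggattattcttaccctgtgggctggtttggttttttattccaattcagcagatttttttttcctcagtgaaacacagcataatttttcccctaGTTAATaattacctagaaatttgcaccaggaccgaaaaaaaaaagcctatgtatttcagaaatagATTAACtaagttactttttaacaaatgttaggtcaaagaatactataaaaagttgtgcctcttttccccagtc

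The motif GTTAAT, searched on both strands, had 1 match each upstream of Alb and Afp and 2 upstream of Afm, and 6.43% of 32851 RefSeq promoters of the same length held it. CCAAT had 2 matches for Alb and 1 each for Afp and Afm, against 33.8% of promoters with a match. TTGCNNAA, a C/EBP motif likewise searched on both strands, had 1 match for Alb, 1 for Afp and none for Afm, and 9.56% of promoters held it. No matches overlapped, although those to GTTAAT and CCAAT lay close together upstream of Afp. TATAAA occurred once for Afp and once for Afm and not for Alb, against 12.4% of promoters. A match describes these letters only.

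Peaks are placed below by their distance from an Alb start near 90.89 Mb, negative upstream. That start, and an Afp start near 90.92 Mb, were given to the nearest 10 kb, so distances from a gene carry an uncertainty of about 5 kb. No position of Afm on mm9 was used, and no peak was assigned to Afm. In whole tissue, fewer cells with the mark and less mark per cell cannot be told apart. Hepatocyte markers other than the genes of the cluster were not located here.

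H3K27Ac peaks covered between 14.2% and 18.2% of the window in 4 of the 5 FiTAc-seq lists with peaks there, and 2.39% at 50 °C/5 min, against 6.82% in fresh frozen liver. FiTAc-seq gave 50 peaks in the window at 50 °C/40 min, 13 at 50 °C/5 min, 56 at 65 °C/40 min, and 49 and 53 in the pair at 65 °C/5 min, against 27 in fresh frozen liver. These peaks covered 28395 bp at 50 °C/40 min, 4776 bp at 50 °C/5 min, 30935 bp at 65 °C/40 min, and 36331 and 34998 bp in the pair, against 13636 bp in fresh frozen liver. The pair averaged 35664.5 ± 943 bp (SD, n = 2), which is 17.8% of the window and 2.62 times the fresh frozen value. The list at 50 °C/5 min was the only one with peaks that covered less than fresh frozen liver, at 0.350 times its value. No peak lay in the window at 80 °C/40 min, in a list of 65 peaks, or in the FiT-seq H3K27Ac list of 115 peaks.

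**Figure D1:**
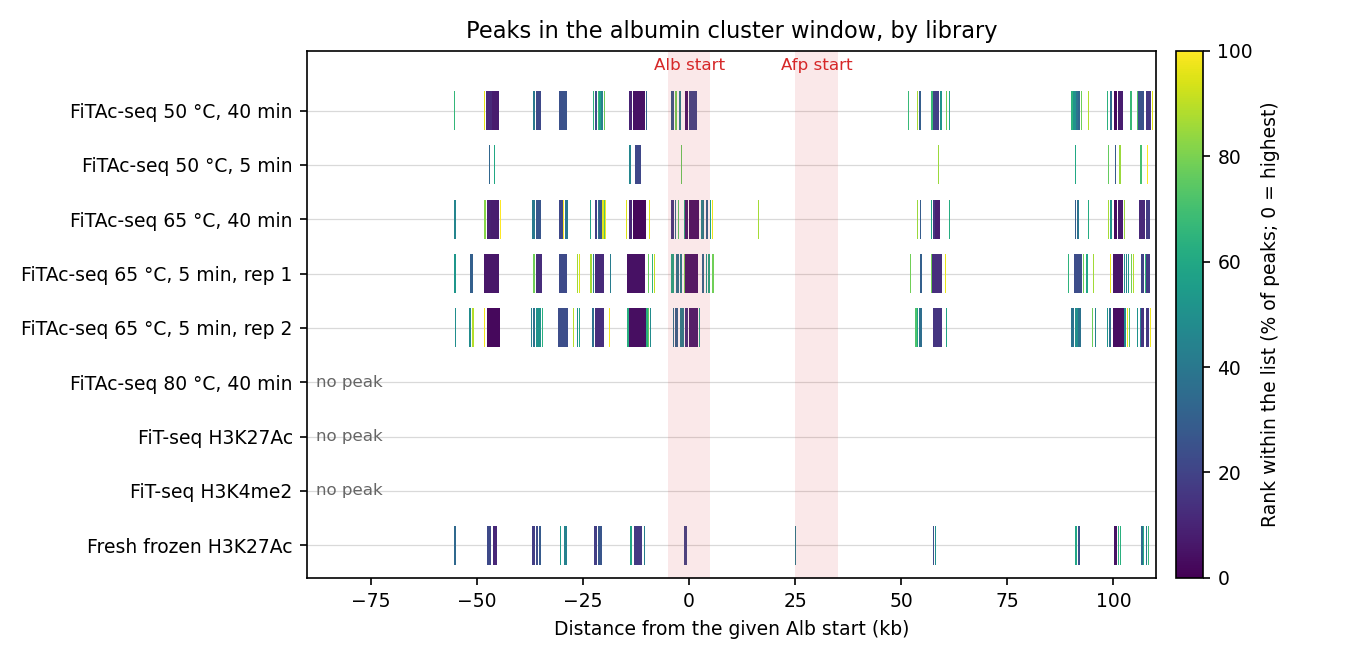
Peaks of the albumin cluster window by library, one row each, at their distance in kb from the given Alb start, coloured by rank within the library's own list (0% is the highest peak). Red bands mark the given Alb and Afp starts with their 10 kb uncertainty. In the lists with peaks, H3K27Ac peaks lie upstream of Alb and again between 89.3 and 109 kb, and are nearly missing around Afp. Within 5 kb of the given Alb start, fresh frozen liver and 50 °C/5 min have 1 peak each. Peaks are sparse at 50 °C/5 min (13 peaks).

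The order of covered bases was 65 °C/5 min, then 65 °C/40 min, 50 °C/40 min, fresh frozen liver, and 50 °C/5 min. Each step in this order was larger than the SD of the pair. The step between the 40 min lists was not stable, because the difference of 65 °C minus 50 °C was 2540 bp with all peaks and -400 bp once peaks with a −log10 q-value under 5 were left out. Lists also differ in how much they cover in all. The cluster held 0.0782% of all covered bases at 50 °C/40 min, 0.0278% at 50 °C/5 min, 0.0894% at 65 °C/40 min and 0.0847% ± 0.0034 (SD, n = 2) at 65 °C/5 min, against 0.0666% in fresh frozen liver. Among 7662 windows of 200 kb with a peak in any list, the cluster ranked 106 by covered bases at 50 °C/40 min, 1142 at 50 °C/5 min, 65 at 65 °C/40 min, and 73 and 66 in the pair, against 26 in fresh frozen liver.

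Each peak carries a value from the authors, read here as a −log10 q-value, and its rank was taken within its own list. The best ranks were 1047 at 50 °C/40 min, 8312 at 50 °C/5 min, 1137 at 65 °C/40 min, and 2590 and 1231 in the pair, against 2306 in fresh frozen liver. The median peak of the cluster stood at 47.7% of the list at 50 °C/40 min, 60.02% at 50 °C/5 min, 45.7% at 65 °C/40 min, and 59.2% and 48.9% in the pair, against 35.9% in fresh frozen liver, where 0% is the highest. Between 0 and 4 peaks per FiTAc-seq list and 1 in fresh frozen liver were among the 5000 highest. The whole lists held 65332 peaks at 50 °C/40 min, 38409 at 50 °C/5 min and 64146 at 65 °C/40 min. The pair held 60244 and 56632, and fresh frozen liver 48239. As a share of its peaks in each list, the cluster's count lay near or below the share that 5000 is of that list.

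Around Alb, peaks lay on both sides of the given start at 50 °C/40 min, at 65 °C/40 min and in the pair. They ran from -4.34 to 5.74 kb. The single peaks near it at 50 °C/5 min and in fresh frozen liver lay just before it, at -1.94 and -1.12 kb. That start is uncertain by about 5 kb, so the side on which a peak lay is not firm. In the 10 kb centred on that start, peaks covered 4024 bp at 50 °C/40 min, 160 bp at 50 °C/5 min, 6126 bp at 65 °C/40 min, and 6679 and 5494 bp in the pair, against 716 bp in fresh frozen liver. Fresh frozen liver had a single peak there, at 90888883 to 90889598 with rank 10095, or -1.12 kb. At 50 °C/40 min, at 65 °C/40 min and in the pair there were more peaks, such as a 2521 bp peak at 90889906 to 90892426 with rank 3599 at 65 °C/40 min. Near this start the covered bases were 5.62 times the fresh frozen value at 50 °C/40 min, 0.223 times at 50 °C/5 min, 8.56 times at 65 °C/40 min, and 9.33 and 7.67 times in the pair. In the rest of the window the ratios were 1.89 at 50 °C/40 min, 0.357 at 50 °C/5 min, 1.92 at 65 °C/40 min, and 2.30 and 2.28 in the pair. The list at 50 °C/5 min thus went the other way from the other lists, with a lower ratio near Alb than elsewhere, on 160 bp of a single peak. The rest of the window was not even. Between 51.5 and 61.6 kb, peaks covered 2888 to 3432 bp in the FiTAc-seq lists other than 50 °C/5 min, against 472 bp in fresh frozen liver. A large excess over fresh frozen liver was therefore not particular to the Alb start.

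The highest and widest peaks recurred at a few sites. One lay about 13 kb before the given Alb start and held the widest peak of the window in each of the 6 lists with peaks there. It measured 2725 bp with rank 2941 at 50 °C/40 min, and 1397 bp with rank 8312 at 50 °C/5 min. At 65 °C it measured 3034 bp with rank 1137 after 40 min, and 4225 bp with rank 2590 and 3837 bp with rank 2154 in the pair. In fresh frozen liver it was 2046 bp at 90876951 to 90878996, with rank 8151. Ranks come from lists of different lengths, so they place a peak within its library and measure no change between libraries.

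A second site lay about 100 kb beyond the given Alb start. It was the highest peak of the window in fresh frozen liver, at 90990158 to 90990809 with a −log10 q-value of 47.7 and rank 2306. It was also the highest at 50 °C/40 min, with rank 1047, and among the 3 highest elsewhere, with rank 10642 at 50 °C/5 min, 1750 at 65 °C/40 min, and 3413 and 2154 in the pair. A further site lay about 47 kb before Alb. It was the highest of the window in the second library at 65 °C/5 min, with 3012 bp at 90842369 to 90845380 and rank 1231, and had rank 3644 in the first. In fresh frozen liver the peak at 90843841 to 90844807 there ranked 5284, and at 50 °C/5 min the highest ranked 12480. The remaining named peak, at 90888929 to 90889621, ranked 4179 at 50 °C/40 min and lay at -1.07 kb, beside Alb.

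Around the given Afp start peaks were nearly missing, which is not the same as an absent mark. No list had a peak between 4.76 kb before and 21.5 kb after that start, a gap of 26.2 kb. The nearest peak upstream was a 292 bp fresh frozen peak at 90914948 to 90915239, with rank 20099, that no FFPE list shared. Without a peak were 49.6 kb around Afp at 50 °C/40 min, 60.4 kb at 50 °C/5 min, 37.1 kb at 65 °C/40 min, and 46.4 and 50.1 kb in the pair, against 32.3 kb in fresh frozen liver. The only other peak between the end of the block around Alb, at 5.74 kb, and the given Afp start was 146 bp long, at 90906305 to 90906450, and ranked 55593 at 65 °C/40 min. Within 5 kb of the Afp start, peaks covered 0 bp in all 5 FiTAc-seq lists with peaks in the window and 239 bp in fresh frozen liver. Long stretches without a peak were not particular to Afp. The stretch from 61.6 to 89.3 kb, of 27725 bp, had no peak in any list, nor had about the first 34.5 kb of the window.

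The peaks fell into 4 main blocks, taken as stretches parted by at least 5 kb without a peak in any list. The block from -37.4 to 5.74 kb, which holds the given Alb start, took 46.9% of the covered bases at 50 °C/40 min, 38.8% at 50 °C/5 min, 55.3% at 65 °C/40 min, and 53.0% and 52.6% in the pair, against 53.0% in fresh frozen liver. That block is the longest of the 4, at 43124 bp against 11218, 10082 and 19952 bp for the others along the chromosome. Its share of covered bases is therefore no measure of density. A block further upstream, from -55.5 to -44.3 kb, took 12.5% to 13.5% in the 5 FiTAc-seq lists with peaks in the window and 17.3% in fresh frozen liver. The block from 51.5 to 61.6 kb, beyond Afp, covered 3342 bp at 50 °C/40 min, 343 bp at 50 °C/5 min, 2888 bp at 65 °C/40 min, and 3432 and 3393 bp in the pair, against 472 bp in fresh frozen liver. The last block, from 89.3 to 109 kb, covered 8097 bp at 50 °C/40 min, 1973 bp at 50 °C/5 min, 6896 bp at 65 °C/40 min, and 8740 and 8813 bp in the pair, against 3285 bp in fresh frozen liver. The SD of the pair was 27.6 and 51.6 bp in these 2 blocks, against 598 bp around Alb and 369 bp further upstream.

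**Figure D2:**
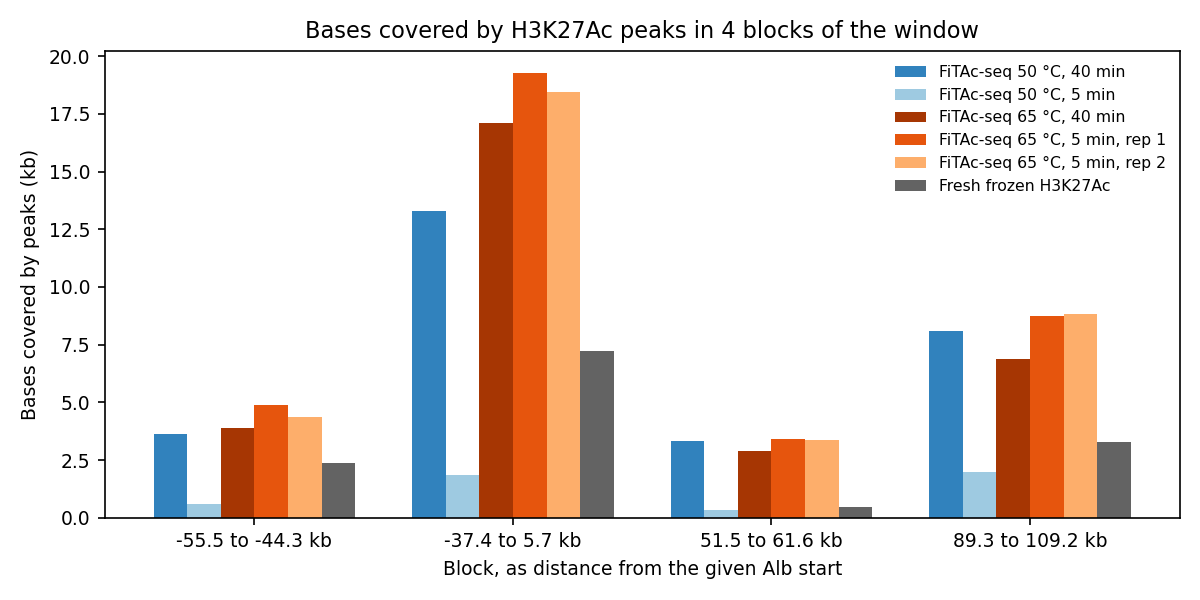
Bases covered by H3K27Ac peaks, in kb, in each of 4 blocks of the window, named by distance from the given Alb start, with one bar per library. The block around Alb has the most covered bases in 5 of the 6 lists (19271 and 18426 bp in the 65 °C, 5 min pair and 7228 bp in fresh frozen liver). It is also the longest block, at 43124 bp. The 50 °C, 5 min bar is the lowest in every block.

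With gaps of up to 500 bp closed over all lists, the window held 21 segments, of which 7 had a peak in all 6 lists. These 7 held all covered bases of the 50 °C, 5 min list and 65.7% to 74.5% of those of the other lists. They lay at -48.4, -14.8, -4.34, 57.0, 89.3, 98.4 and 105.5 kb by their first base. Fresh frozen liver had a peak in 12 of the 21 and the FiTAc-seq pair in 18 with both libraries. A segment from 53.3 to 54.8 kb had peaks in 4 FiTAc-seq lists, with best ranks between 18340 and 20187, and none in fresh frozen liver or at 50 °C/5 min. A segment had peaks of 1 list only in 2 cases, which are the short peaks between Alb and Afp described above.

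Of the 27 fresh frozen peaks, 26 were met by at least 1 bp at 50 °C/40 min, at 65 °C/40 min and in each library of the pair, or 96.3% (Wilson 95% interval 81.7 to 99.3, counting error only). Over all 48239 fresh frozen peaks the shares were 73.2% at 50 °C/40 min, 72% at 65 °C/40 min, and 73% and 70.2% in the pair. In the 300 windows of 200 kb with at least 20 fresh frozen peaks they were 85.6% at 50 °C/40 min, 84.2% at 65 °C/40 min, and 85.2% and 82% in the pair. The share of the cluster lay above all of these. Neighbouring peaks of the same library are not independent, as a wide FFPE peak can meet several, so the interval is no test against these shares. In the lists with no peak in the window none of the 27 was met, against 0.112% of all fresh frozen peaks at 80 °C/40 min and 0.0829% in FiT-seq H3K27Ac. The list at 50 °C/5 min met 9 of the 27, or 33.3% (18.6 to 52.2), against 43.7% of all fresh frozen peaks and 55.1% of those in dense windows. The peaks at -1.12 kb beside Alb and at 57.5 and 58.0 kb were among the 18 that it missed.

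Wide FFPE peaks met several fresh frozen peaks at once. In the pair at 65 °C/5 min, 15 peaks of each library met the 26, and at 50 °C/40 min 24 peaks did. In the other direction, 24 of 50 peaks at 50 °C/40 min met a fresh frozen peak, against 49.4% in the whole list. At 50 °C/5 min 9 of 13 did, against 55.7%, and at 65 °C/40 min 27 of 56, against 49.6%. In the pair the counts were 15 of 49, against 44.3%, and 15 of 53, against 46.4%. Between the libraries of the pair, 31 of 49 peaks of the first and 39 of 53 of the second met the other, against 67.5% and 77.1% over the whole lists. Over the 26 shared fresh frozen peaks, the rank correlation with the highest overlapping peak was between 0.20 and 0.26 in the 4 lists. These points share peaks, since one wide peak stands for several, so the value is a description only.

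**Figure D3:**
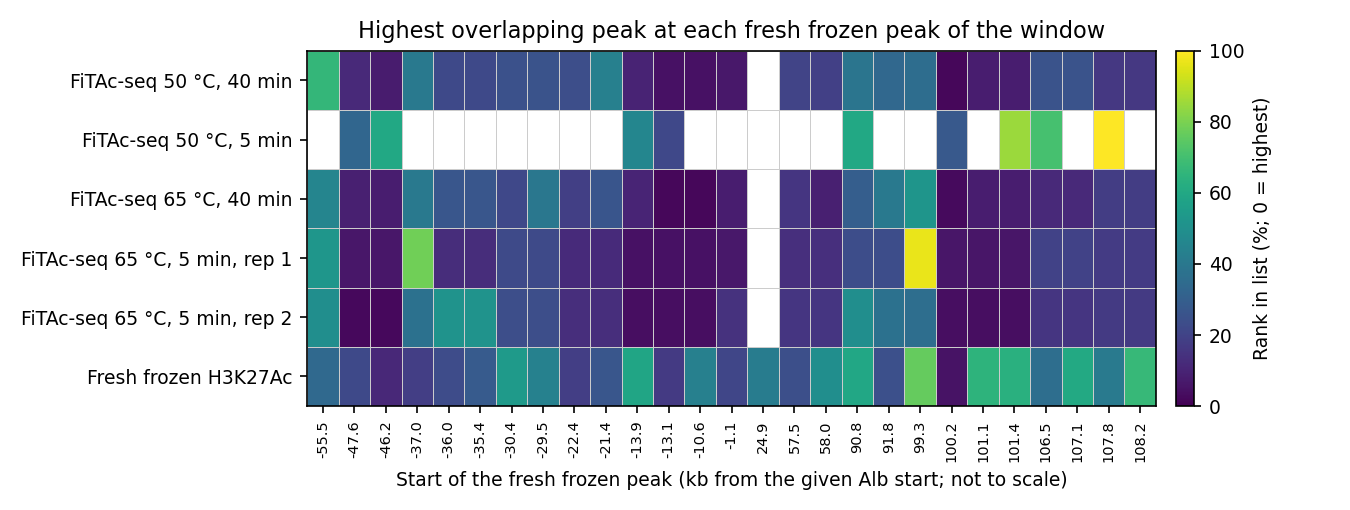
The 27 fresh frozen peaks of the window, in order along the chromosome (x axis, start in kb from the given Alb start), with the rank of the highest overlapping peak in each list as a percent of that list. White cells have no overlapping peak: 18 of 27 at 50 °C/5 min, and 1, the peak at 24.95 kb near Afp, in the other 4 FiTAc-seq lists with peaks in the window.

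At 50 °C the library of 40 min had 23619 bp more covered bases in the cluster than that of 5 min (28395 against 4776 bp). This was 5.95 times as many, where the SD of the pair was 943 bp. Over all peaks the same ratio was 2.12. Among 298 peak-dense windows with peaks in both lists the median ratio was 2.07 (quartiles 1.60 and 3.06), and 96.3% had a lower ratio than the cluster. This rank is a description of 2 libraries. At 65 °C the difference was -4729.5 bp for 40 min (30935 bp) against 5 min (35664.5 bp), a ratio of 0.867, close to the 0.821 over all peaks. As a share of all covered bases the cluster was not lower after 40 min, at 0.0894% after 40 min against 0.0847% after 5 min.

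After 5 min the pair at 65 °C had on average 30888.5 bp more than the library at 50 °C (35664.5 against 4776 bp). This was 7.47 times as many, against 2.46 times over all peaks. The median of 299 peak-dense windows was 2.36, and 97.7% were below the cluster. After 40 min the difference was 2540 bp (30935 against 28395 bp), or 1.09 times, against 0.953 over all peaks. Here 95.7% of 299 dense windows, of median 0.949, were below the cluster, although the sign of this difference turned with the filter on values described above. The ratios of 5.95 and 7.47 share the 1 library at 50 °C/5 min. Relative to fresh frozen liver that library stood at 0.350 in the cluster and 0.839 over all peaks, and 6.02% of dense windows were lower. The other 3 FiTAc-seq conditions with peaks in the window stood near the middle of the dense windows. Their ratios to fresh frozen liver were 2.08 at 50 °C/40 min, 2.27 at 65 °C/40 min and 2.62 at 65 °C/5 min, and 42.8%, 59.3% and 58.0% of dense windows were lower. Within the 50 °C/5 min list the −log10 q-values of the cluster lay between 2.16 and 8.57, with a median of 4.75, where the median of that whole list was 5.65.

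**Figure D4:**
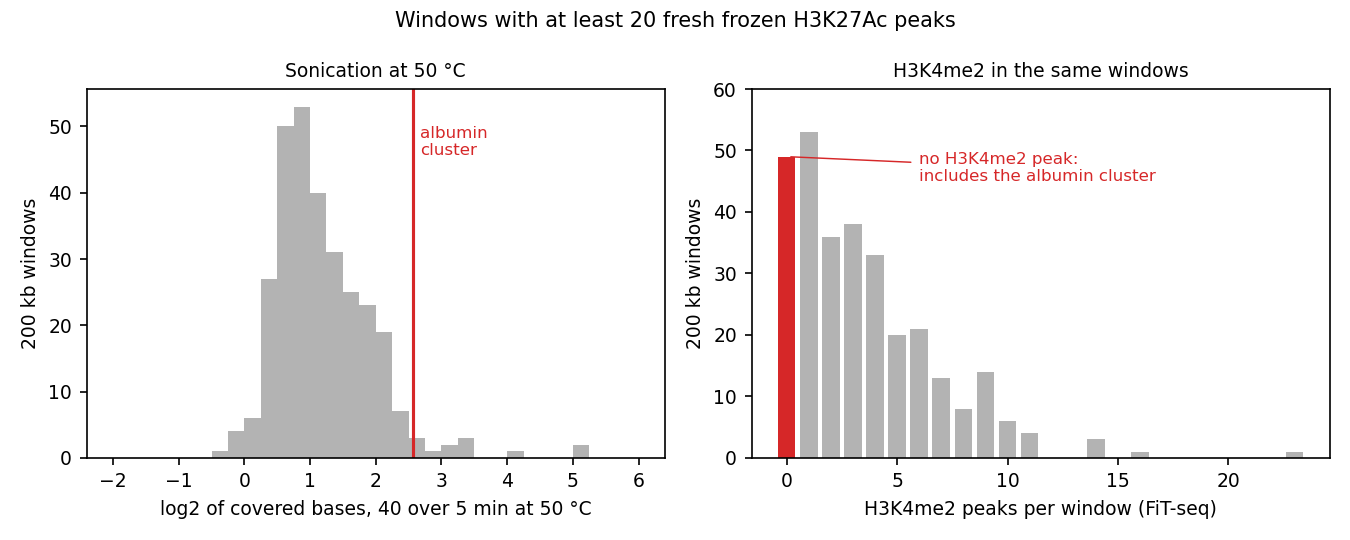
Histograms over the 200 kb windows with at least 20 fresh frozen H3K27Ac peaks. Left, log2 of the bases covered at 50 °C after 40 min over those after 5 min, with the albumin cluster (ratio 5.95) as a red line among 298 windows of median ratio 2.07. Right, FiT-seq H3K4me2 peaks per window, where the albumin cluster is one of 49 windows of 300 with none.

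H3K4me2 had no peak in the cluster. The FiT-seq list of 11746 H3K4me2 peaks held 0 in the window, so it met 0 of the 27 fresh frozen H3K27Ac peaks. For independent peaks this would allow a share of up to 11.1% by a limit of 3 counts and 12.5% by the Wilson interval. The empty window fixed the count for all 27 together, so these limits cannot be set against other shares. Over the genome this list met 16% of fresh frozen peaks, and 11.3% in dense windows. The nearest H3K4me2 peaks lay at 90796164 to 90796348, 3.65 kb before the window, with rank 8371, and at 91360499 to 91360905, 360 kb beyond it. The stretch without one was 564 kb long. Of the 300 peak-dense windows 49, or 16.3%, had no H3K4me2 peak, against 2841 of all 7662 windows. Of the 56 windows with at least as many fresh frozen peaks as the cluster, 10 had none. No share of H3K4me2 peaks met by H3K27Ac could be given for the cluster. This library differed from FiTAc-seq in both the mark and the preparation, which cannot be told apart. Its depth is unknown, so the mark was not detected here, which is not the same as absent.

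Just before the window, only the peak of each list nearest the edge was looked at. In 3 FiTAc-seq lists that peak overlapped the H3K4me2 peak. The nearest peaks of the 6 lists ended between 3.12 and 3.87 kb outside the edge. The first library at 65 °C/5 min had a 3069 bp peak of rank 1786 there, and fresh frozen liver a 1892 bp peak of rank 3297, which ended just short of the H3K4me2 peak. A 2449 bp peak of rank 2626 lay there at 65 °C/40 min and a 2445 bp peak of rank 3148 at 50 °C/40 min. The nearest peaks of the list at 50 °C/5 min and of the second library at 65 °C/5 min were 193 and 190 bp long. Whether a peak further out in these lists overlapped the H3K4me2 peak was not looked at. With 50 kb added on each side of the window, covered bases rose from 4776 to 7166 bp at 50 °C/5 min. The mean of the pair rose from 35664.5 to 40001.5 bp. Beyond the other edge the first peaks lay at 7.00 kb with rank 38284 at 50 °C/40 min, 68.8 kb with rank 10642 at 50 °C/5 min, 8.001 kb with rank 52734 at 65 °C/40 min, and 17.9 and 16.0 kb with ranks 47080 and 36042 in the pair, against 7.06 kb with rank 46209 in fresh frozen liver. The first peaks inside the window began 34.5 kb from its start in fresh frozen liver and the last ended 1.55 kb before its end.

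The 3 windows most like the cluster, by the distance between percentile ranks of covered bases over the 7 lists with at least 5000 peaks, were chromosome 1 from 138800001 to 139000000, chromosome 8 from 47400001 to 47600000 and chromosome 6 from 149000001 to 149200000. Their distances were 3.27, 4.98 and 7.19 percentile points. Those lists include FiT-seq H3K4me2 and 50 °C/5 min, so the choice itself favours windows with no H3K4me2 peak, which none of the 3 had, and with little cover at 50 °C/5 min. At 50 °C/5 min they covered 5006, 3927 and 7214 bp, against 10004, 13157 and 12589 bp in fresh frozen liver. The windows were named by position only, since no gene annotation of mm9 was used.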

How the data were processed

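The submitters' processing notes name BWA, MACS2 and the build mm9. For versions, thresholds and a control for peak calling: not given in the sources used here. The authors deposited 1 list per library, so peaks were not called on pooled samples. The deposited value per peak was read as a −log10 q-value, because no value lies below 2. It depends on the depth and background of its library, which are unknown, and was used only within a list, for ranks (ties share the best rank) and filters.

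Only the autosomes, X and Y were used. Covered bases are the union of peaks clipped to the window, starts are 1-based, and peaks were met when sharing at least 1 bp. The genome was cut into 200 kb windows from the first base of each chromosome. The text names the 3 highest and the widest peaks of each list in the window, segments of all 6 lists or of 1 list, and the peaks next to its edges. The remaining positions in the text, the blocks of 5 kb, the minimum of 20 fresh frozen peaks and the 10 kb around gene starts were chosen after values were seen. The window, members and lists were chosen with earlier results of these data known. Promoter sequences are from RefSeq, GRCm38.p6, and all 3 genes matched. Interval steps were tested on simulated lists. Computation used Python 3.11.15 with pandas 2.3.3, numpy 2.4.6 and scipy 1.17.1, and plots matplotlib 3.10.9.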

Additional observations from a re-analysis of the deposited data

Results flagged for a closer look

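Between the libraries of 40 and 5 min, the bases covered in the cluster differed in opposite directions at the 2 temperatures. At 50 °C the difference (40 minus 5 min) was 23619 bp. At 65 °C it was -5396 bp against the first and -4063 bp against the second library of 5 min. The opposite directions were not particular to the cluster. For whole lists the ratio of covered bases, 40 over 5 min, was 2.12 with heating at 50 °C but 0.821 with 65 °C. The peak-dense windows had median ratios of 2.07 and 0.848 in the same order. Whether the effects at the 2 temperatures differ was not tested, as 3 of the 4 conditions are single libraries.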

How the results depend on the processing

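Of 91 recomputed values, 58 were counted as the same, and 1 reversed. The other 32 moved beyond the spread of the pair, the counting interval or 1.5 times a count. The 58 include values of the lists with no peak in the window, which mostly stayed at 0. They also include the ratios of 40 over 5 min at 50 °C in the cluster and over all peaks, which were held against no limit. That ratio in the cluster was 5.95 with all peaks and 10.8 without peaks of a −log10 q-value under 5. The reversed value was the difference of 65 °C minus 50 °C at 40 min, which was -400 bp once peaks with a −log10 q-value under 5 were left out, and the cause was not tested. With that filter, covered bases were 2578 bp at 50 °C/5 min, 27345 bp at 65 °C/40 min and 32570 bp at 65 °C/5 min. The 40 minus 5 min difference at 50 °C was then 25167 bp, the share of fresh frozen peaks met at 50 °C/5 min 14.8%, and the peak counts 5 at 50 °C/5 min and 31 in the first library at 65 °C/5 min. When gaps no longer than 500 bp were closed, covered bases were 34923 bp at 50 °C/40 min, 39564 bp at 65 °C/40 min and 42527 bp at 65 °C/5 min, against 17044 bp in fresh frozen liver. Differences were 30147 bp (40 minus 5 min, 50 °C), -2963 bp (65 °C), 37751 bp (65 °C minus 50 °C, 5 min) and 4641 bp (40 min). Peak counts became 20 at 50 °C/40 min, 17 at 65 °C/40 min and 24 and 20 in the pair, against 16 in fresh frozen liver. With the window widened by 50 kb on each side, covered bases were 33099 and 7166 bp at 50 °C after 40 and 5 min, and 34976 and 40001.5 bp at 65 °C, against 15791 bp in fresh frozen liver. Differences were 25933 bp (40 minus 5 min, 50 °C) and 32835.5 bp (65 °C minus 50 °C, 5 min). H3K4me2 then covered 331 bp. With the 5000 highest peaks of each list, fresh frozen liver kept 1 peak in the window, met in 100% of cases at 50 °C/40 min, 65 °C/40 min and in the pair, and in 0% at 50 °C/5 min.

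The ratio of 40 over 5 min at 50 °C in the cluster was 2.81 times that over all peaks, 4.22 times with the −log10 q-value filter and 3.55 times with gaps closed. These last settings, those for peak counts, and other minimums for dense windows (15.9% without H3K4me2 at 15 fresh frozen peaks and 15.2% at 25) were chosen after seeing the data. Leaving out either library of the pair gave 34998 to 36331 bp, -5396 to -4063 bp for 40 minus 5 min at 65 °C and 30222 to 31555 bp for 65 °C minus 50 °C at 5 min. No paired analysis was possible because only 1 condition had numbered replicates. The share of H3K4me2 peaks met could not be computed under any setting, since none lay in the window. Depth is unknown, so a missing peak is not an absent mark.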
